A study of Homo sapiens with 23 samples.

Results

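CILP, CRYAA and ABCC2 were chosen because their RNA fell the most when dCas9-KRAB was induced with doxycycline. They are 3 of the 16371 genes that had enough reads to be tested in the 6 RNA libraries. The 3 genes were chosen by measured values, namely the log2 fold changes between the doxycycline and the no doxycycline libraries, among genes called lower, with a mean of at least 1 CPM (counts scaled by library size) and no overlap between the groups. Their own falls are therefore given below as a description, without a test. A gene is named as called where its adjusted p was under 0.05 in edgeR's quasi-likelihood test over all genes.

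The cells were NCCIT, an embryonal carcinoma line with stem-like properties. The derived line, SCi-NCCIT, carries an inducible dCas9-KRAB, a nuclease-dead Cas9 fused to a KRAB repressor domain, and expresses constitutively a pair of single guide RNAs directed at SVA transposons. Stable transfectants had been isolated under drug selection. RNA came from 3 untreated SCi-NCCIT libraries and from 3 after 2 µg/mL doxycycline for 72 hours. H3K9me3 ChIP-seq was available from 1 library of NCCITs without dCas9-KRAB and from 2 libraries of SCi-NCCITs per condition. YY1 ChIP-seq came from 2 libraries per condition and OCT4 ChIP-seq from 1 per condition. No library came from cells given doxycycline without guides or dCas9-KRAB, so the agent and the repressor cannot be told apart. Nothing in the labels says that replicates were separate cultures, and p-values measure the spread between these libraries.

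CILP encodes cartilage intermediate layer protein, a secreted component of the cartilage matrix that binds TGF-beta and opposes IGF1. CRYAA encodes alpha-A crystallin, a small heat shock protein that acts as a chaperone in the fibre cells of the eye lens. ABCC2 encodes MRP2, an ATP-driven pump that exports conjugated bilirubin and other organic anions into bile. None of these genes is a known marker of pluripotent cells. SVAs are composite retrotransposons found in apes, and a KRAB domain recruits the enzymes that place trimethylation on lysine 9 of histone H3 (H3K9me3), a mark of silenced chromatin. YY1 and OCT4 are DNA-binding transcription factors, and OCT4, encoded by POU5F1, maintains pluripotency.

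The 3 loci share a stretch of DNA that gained H3K9me3 with doxycycline and holds an exact match to both guides. The guide sequences, as the study's methods list them, were found here among the 20-base runs next to an NGG PAM that the 3 loci have in common. They are shown because their matches lie near CILP and CRYAA and inside ABCC2, outside any SVA of the study's list.
sgRNA1: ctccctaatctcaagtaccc
sgRNA2: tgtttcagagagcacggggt
The PAM was AGG for sgRNA1 and TGG for sgRNA2 at all 3 loci. Of the 635 listed SVAs on the chromosomes searched, 217 hold the sgRNA1 match and 51 hold the sgRNA2 match, exactly and next to an NGG PAM. The study states that the pair of guides targets most annotated SVAs. Its text does not say how matches were counted, so the exact matches are not a measure of that reach.

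CILP had the largest fall of the genes that met the criteria. CILP (ENSG00000138615) lies on the minus strand of chromosome 15 of hg19, from 65487098 to 65503811. Without doxycycline its level was 38.9, 47.6 and 30.9 CPM in replicates 1, 2 and 3. With doxycycline it was 1.78, 1.53 and 1.45 CPM. The lowest library without doxycycline was 17.4 times the highest with doxycycline, so the groups did not overlap. The fitted log2 fold change was −4.62 ± 0.179 (SE, n = 3 per group), or 24.7-fold lower. All of its reads came from its only listed transcript, CILP-201.

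CRYAA (ENSG00000160202) lies on the plus strand of chromosome 21, from 44589118 to 44592915. Its level was 4.23, 4.95 and 3.95 CPM without doxycycline and 0.355, 0.356 and 0.170 CPM with it. The lowest library without doxycycline was 11.1 times the highest with it. The fitted log2 fold change was −3.88 ± 0.247 (SE, n = 3 per group), or 14.8-fold lower. Of its 5 listed transcripts 3 had any count, and CRYAA-201 held 97.7% of the counts without doxycycline and 95.2% with it. The annotation marks ENSG00000276076 as an artificial duplicate of CRYAA on the same chromosome. That entry had 0 counts over all 6 libraries, but reads that fit both copies could not be placed with certainty. CRYAA2, the name of a second alpha-A crystallin gene, was not a symbol of the annotation used.

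ABCC2 (ENSG00000023839) lies on the plus strand of chromosome 10, from 101542397 to 101612351. Its level was 2.45, 2.30 and 1.74 CPM without doxycycline and 0.20, 0.105 and 0.213 CPM with it. The lowest library without doxycycline was 8.19 times the highest with it. The fitted log2 fold change was −3.61 ± 0.294 (SE, n = 3 per group), or 12.2-fold lower. These values rest on few reads, with 36, 73 and 75 counts without doxycycline and 9, 5 and 10 counts with it.

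Most of the ABCC2 counts without doxycycline, and the largest fall, were assigned to 1 of its 10 listed transcripts. ABCC2-203, the transcript of 32 exons that spans the shared stretch, had estimated counts of 32.9, 59.8 and 61.2 without doxycycline and none in any library with it. Against a floor of 3 counts over the 3 doxycycline libraries, it was at least 80.2-fold lower. The 7 transcripts that end before the stretch had 14.9 counts in all without doxycycline and 10.2 with it, in libraries of unequal depth. Scaled for library size and pooled, that was 0.166 against 0.0729 CPM, or 2.28-fold lower. The 2 that start after the stretch had 14.6 and 14.1 counts, or 0.163 against 0.101 CPM, 1.62-fold lower. In both sets the libraries of the groups overlapped. kallisto divides reads among overlapping transcripts by estimation, so these splits are less certain than the sum over the gene.

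Per length, CILP was the most abundant of the 3 genes before induction. Its level without doxycycline was 9.24 ± 2.10 TPM, the length-scaled share of transcripts (SD, n = 3), against 5.94 ± 0.812 TPM for CRYAA and 1.09 ± 0.227 TPM for ABCC2. The libraries of each neighbour in that order did not overlap, since the lowest CILP value was 7.21 TPM and the highest CRYAA value 6.86 TPM. By mean TPM, 46.3% of the genes tested lay below CILP, 39.0% below CRYAA and 18.1% below ABCC2. With doxycycline the levels were 0.362 ± 0.0370, 0.391 ± 0.141 and 0.324 ± 0.146 TPM. Their ranges overlapped, and under 9% of the genes tested lay below any of them, with 8.17% below CILP, 8.92% below CRYAA and 7.32% below ABCC2. In the TPM of ABCC2 the short transcripts weigh more than in its counts, so its fall was smaller on that scale. Bulk RNA does not tell fewer expressing cells from less RNA per cell.

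**Figure D1:**
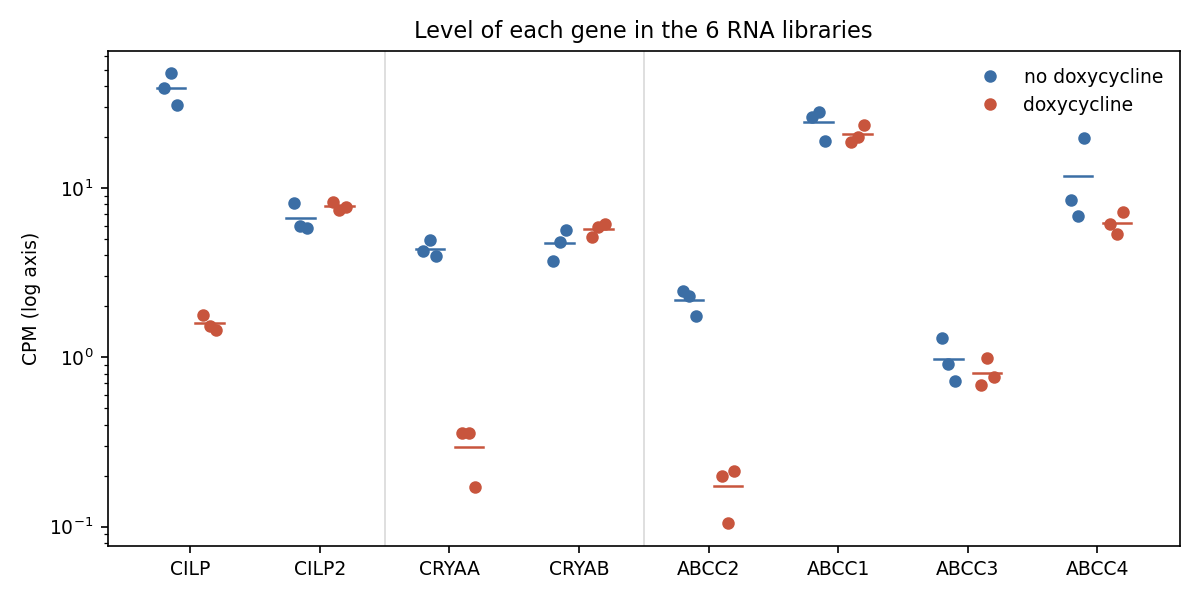
CPM on a log axis of CILP, CRYAA, ABCC2 and their nearest relatives in the 6 RNA libraries, with 1 point per library, a line at the mean of 3, no doxycycline in blue and doxycycline in red. CILP, CRYAA and ABCC2 fall with no overlap between groups, while the points of CILP2, CRYAB, ABCC1, ABCC3 and ABCC4 overlap.

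As background, 17.5% of the 16371 genes tested were called in either direction, 8.48% lower and 8.97% higher. In CPM, 17.8% of all genes tested were lower with no overlap between the groups. All 3 genes are among both sets because the choice required it. The next genes below the choice were INSYN2B at a log2 fold change of −3.51, the long non-coding entry ENSG00000248347 at −3.33 and CHI3L2, a chitinase-like secreted protein also made by chondrocytes, at −3.17. ABCC2 and INSYN2B, on either side of the boundary, differed by less than the SE of either. A further 4 called genes fell more than ABCC2 but had a mean under 1 CPM.

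The libraries held 15305909, 33286581 and 45295427 estimated counts without doxycycline and 46562047 to 49878613 with it, so replicate 1 without doxycycline is the shallowest. ZNF10, the gene that gave the KRAB domain of common dCas9-KRAB fusions, rose from 10.8 ± 0.882 to 398 ± 52.9 CPM (SD, n = 3), as a check of induction. The pluripotent state of the cells showed in all 12 pluripotent cell markers at 1 TPM or more on average, with SOX2 at 259 TPM or more in every library. Their summed level was 1744 to 1940 TPM without doxycycline and 1339 to 1496 TPM with it, without overlap between groups. Its part in the falls of CILP, CRYAA and ABCC2 was not tested. Neither POU5F1 (log2 fold change −0.12, adjusted p = 0.527 in edgeR) nor YY1 (−0.10, adjusted p = 0.202 in edgeR) was called, although the YY1 levels were lower with doxycycline without overlap.

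Markers of the tissues in which these genes are best known were few. Of 8 chondrocyte markers 2 were at 1 TPM or more on average, and the summed level of the list was 95.7 to 121 TPM without doxycycline and 82.4 to 88.0 TPM with it, mostly COL2A1. Of 8 lens fibre markers 2 were at 1 TPM or more, with a sum of 14.5 to 20.001 TPM without and 10.98 to 12.99 TPM with doxycycline, and CRYGC was at 0 in every library. None of 8 hepatocyte markers reached 1 TPM, with a sum of 1.49 to 1.89 TPM without and 1.12 to 1.51 TPM with doxycycline, and ALB stayed at or below 0.382 TPM. The chondrocyte and lens lists were lower with doxycycline without overlap between groups, and their part in the falls was not tested.

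Each of the 3 loci gained exactly 1 run of H3K9me3 of at least 1 kb within 100 kb of its transcription start site (TSS), and lost none. A gained run is covered by peaks in both doxycycline libraries and in neither without doxycycline. At CILP the run was 5.34 kb long and lay upstream, from −18.8 to −13.5 kb of the TSS. At CRYAA it was 6.73 kb long and also upstream, from −24.7 to −18.0 kb. At ABCC2 it was 3.19 kb long and lay inside the gene, from +37.5 to +40.6 kb, over no exon. None of the runs overlapped a peak of the NCCIT library or a listed SVA. Of all genes tested, 8.23% had such a gained run within 100 kb, against 21.96% of those called lower and 5.65% of those called higher. A lost run was found within 100 kb of 0.263% of the genes tested. The count of 3 loci was the same for runs of at least 500 bp, which 14.6% of the genes tested had, and of at least 2000 bp, which 2.71% had.

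**Figure D2:**
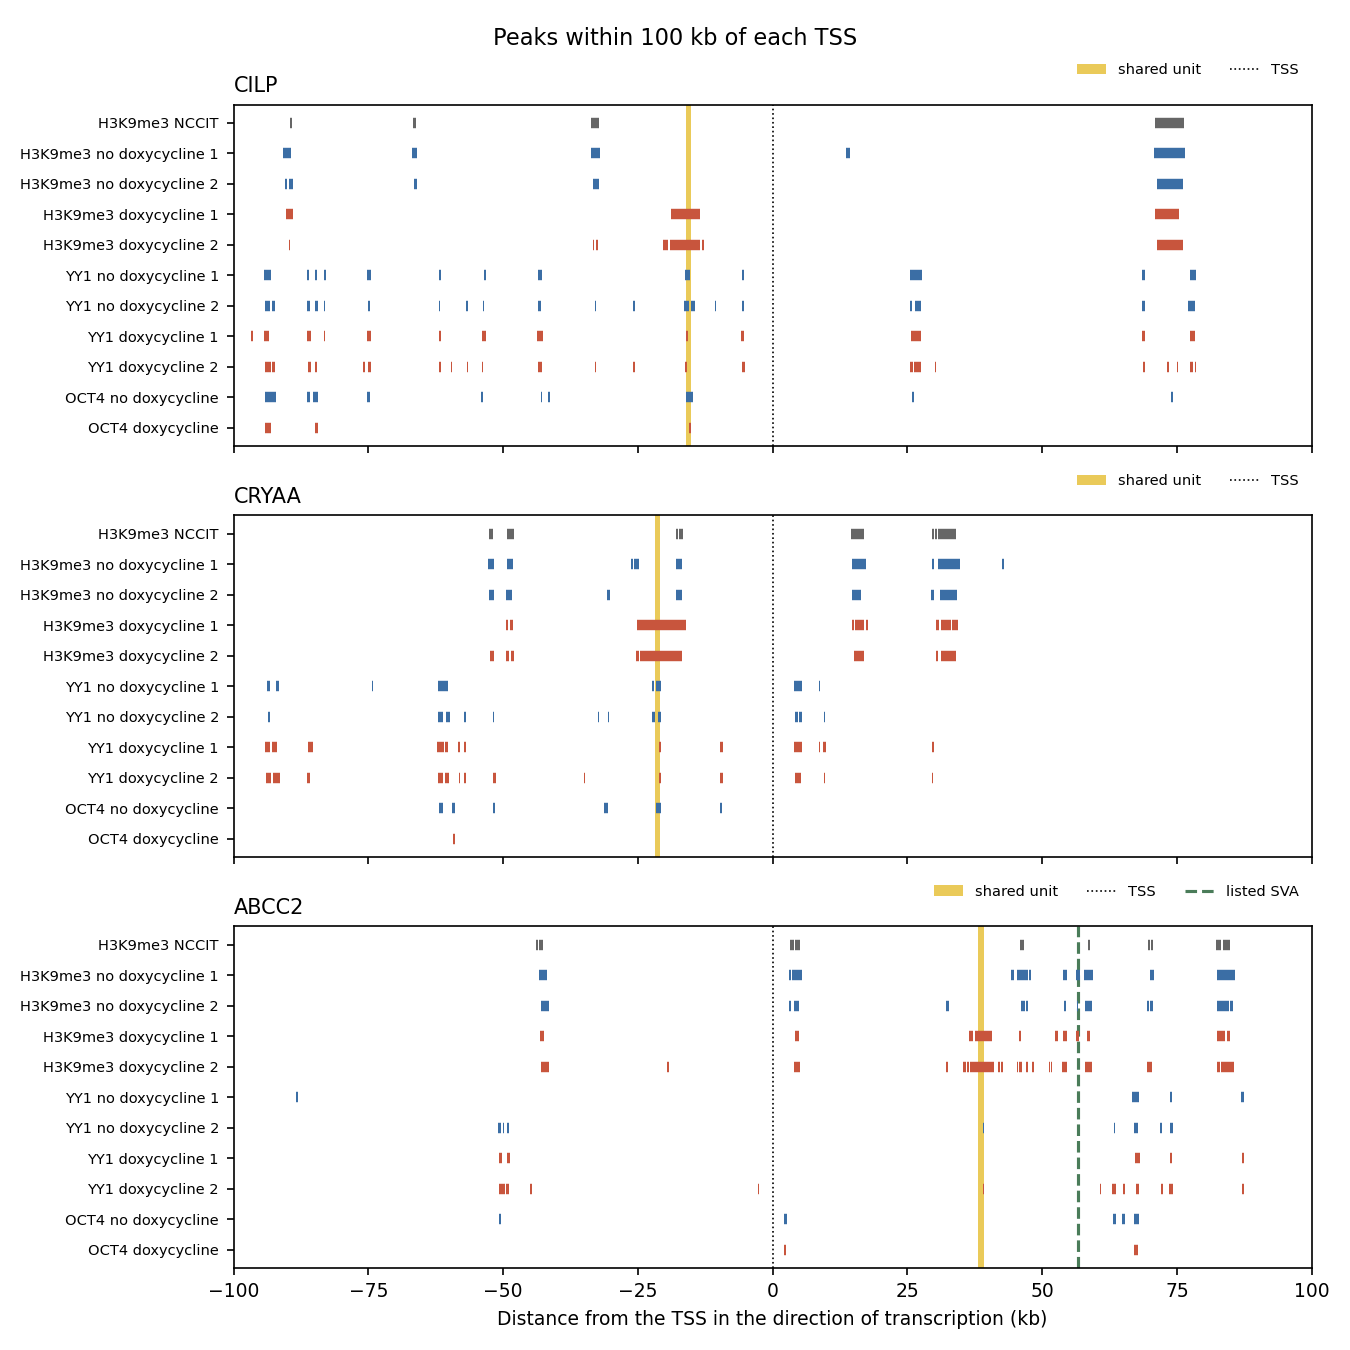
Peaks of the 11 ChIP-seq libraries within 100 kb of the TSS of CILP, CRYAA and ABCC2, by distance from the TSS in the direction of transcription, with NCCIT in grey, no doxycycline in blue and doxycycline in red. In every locus the wide red H3K9me3 peaks cover the shared unit (yellow), where NCCIT and no doxycycline libraries have none. The unit was sought within runs gained with doxycycline, which fixes the difference between the conditions.

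Parts of the 100-kb windows were already marked without doxycycline. Peaks covered 10.4 and 7.31 kb around CILP without doxycycline, 11.1 and 12.9 kb with it, and 7.72 kb in NCCITs. Around CRYAA they covered 11.9 and 9.355 kb without, 16.0 and 14.8 kb with it, and 9.84 kb in NCCITs, so both libraries with doxycycline were above those without. Around ABCC2 they covered 13.5 and 10.3 kb without and 10.3 and 17.6 kb with doxycycline, and 6.585 kb in NCCITs, so the groups overlapped. Mean differences were 3.14, 4.78 and 2.06 kb, and with 2 libraries against 2 no test was run. At ABCC2 the difference was 7.38 kb without the first replicate of each condition and −3.25 kb without the second, and at CILP it was 5.60 and 0.691 kb. No library had a peak within 1 kb of any of the 3 TSSs.

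The 3 gained runs hold a stretch of about 1 kb that is nearly the same at each locus, called here the shared unit. It spans 970 bases at CILP (chr15:65518880-65519849), 962 at CRYAA (chr21:44567240-44568201) and 986 within ABCC2 (chr10:101580569-101581554). The units of CILP and CRYAA were 96.6% identical, those of CRYAA and ABCC2 94.3% and those of CILP and ABCC2 93.4%, all on the same strand. The nearer end of the unit is 15.1 kb upstream of the CILP TSS, with CILP as the nearest coding TSS, and overlaps an exon of ENSG00000279268, an entry not used here. Its nearer end is 20.9 kb upstream of the CRYAA TSS, again the nearest coding one, in introns of the long non-coding entry ENSG00000286549 and of the duplicate entry ENSG00000276076. In ABCC2 it lies 38.2 kb into the gene, in intron 19 of ABCC2-203.

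All 3 units carried the guide matches at like places. The sgRNA1 match starts at base 692 of the unit at CILP and CRYAA and at base 717 at ABCC2, and the sgRNA2 match at base 813, 813 and 839. In all, 54 runs of 20 bases next to an NGG PAM were common to the 3 units, and 20 of them also occurred in at least 1 listed SVA. The study's text states that the guides were made for a sequence that SVAs have in common with LTR5Hs, a family of retroviral long terminal repeats. Whether the shared unit belongs to that family was not tested, as no annotation of repeats was used. The study itself counted the changed genes nearest to an LTR5Hs, found few, and attributed the changes to SVAs instead.

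YY1 and OCT4 enrichment was lower with doxycycline on the units of CILP and CRYAA. The units were sought only within gained runs, so H3K9me3 on them with doxycycline and not without it follows from that choice. Each value is the summit value of the highest peak that overlaps the unit, and the summit itself can lie outside it. That was so for H3K9me3 with doxycycline at CILP and CRYAA, and in the second library at ABCC2. It was also so for YY1 without doxycycline at CRYAA. At the CILP unit no H3K9me3 peak was found in NCCITs or without doxycycline, and the fold enrichment was 12.9 and 9.70 with it. YY1 enrichment there was 8.57 and 16.7 without doxycycline and 3.29 and 6.57 with it, and OCT4 enrichment was 17.2 without and 4.06 with it. Both YY1 libraries with doxycycline were below both without it.

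At the CRYAA unit H3K9me3 was again absent without doxycycline and reached 13.1 and 9.63 with it. YY1 enrichment was 14.1 and 19.7 without and 4.96 and 6.58 with doxycycline. OCT4 enrichment was 10.1 without doxycycline, and no peak was called with it. As at CILP, the YY1 values of the groups did not overlap.

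The ABCC2 unit differed from those of CILP and CRYAA in that fewer YY1 peaks and no OCT4 peak were called on it without doxycycline. A peak that was not called does not show that the factor was absent. H3K9me3 enrichment with doxycycline was 11.9 and 6.87, with no peak in the other 3 libraries. A YY1 peak was called in 1 library of each condition, at 6.63 without and 5.07 with doxycycline. OCT4 had a peak on the ABCC2 unit in neither library.

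**Figure D3:**
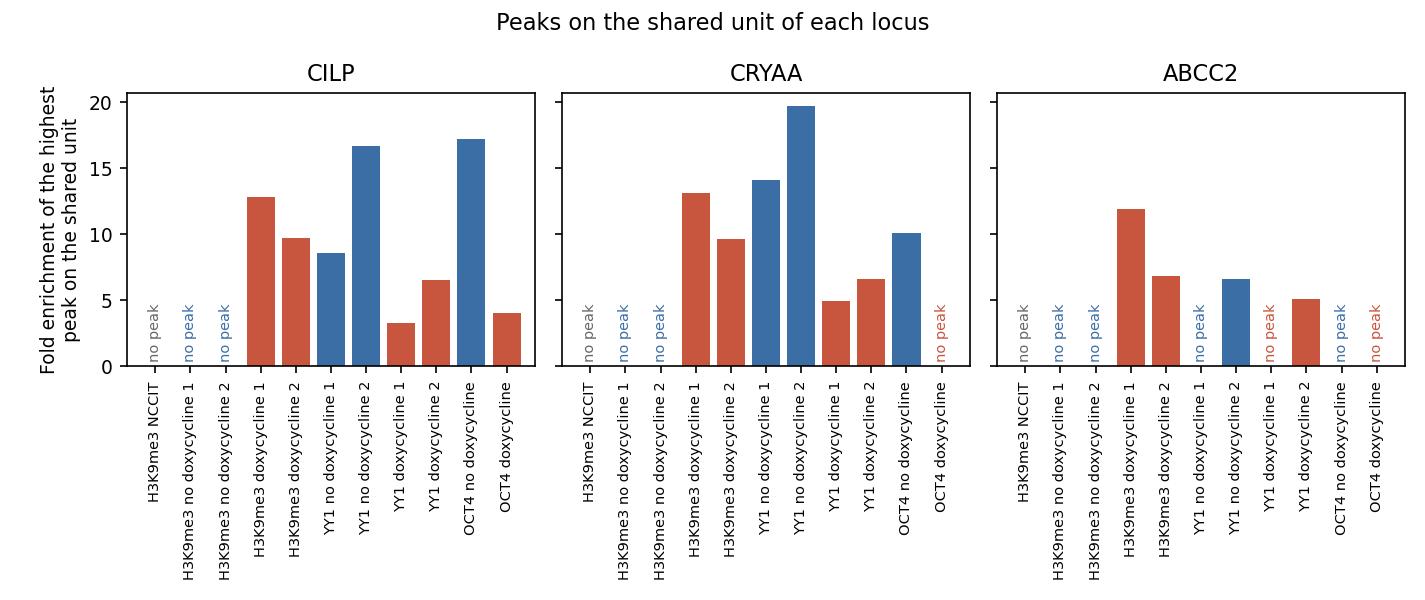
Fold enrichment of the highest peak on the shared unit at CILP, CRYAA and ABCC2 in each ChIP-seq library, as bars from 0, with NCCIT in grey, no doxycycline in blue and doxycycline in red. H3K9me3 bars appear only with doxycycline, which follows from seeking the unit within gained runs. YY1 and OCT4 bars at CILP and CRYAA are lower with doxycycline than without. Each peak overlaps the unit, but its summit can lie outside it.

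The lower YY1 enrichment at the units was not what most YY1 peaks showed. Other copies of the unit, described below, also had a lower median enrichment with doxycycline. Among YY1 peaks called in both libraries numbered 1, the median ratio of enrichment with to without doxycycline was 1.201, and the ratio was 0.383 at the CILP unit and 0.352 at the CRYAA unit. Among those numbered 2 the median was 1.22, and the ratios were 0.393 at CILP, 0.334 at CRYAA and 0.765 at ABCC2. Ratios as low as those of CILP were found at 0.0643% and 0.0677% of shared peaks, those of CRYAA at 0.0353% and 0.0346%, and that of ABCC2 at 5.75%. The YY1 lists with doxycycline were the longer ones, with 82005 and 115673 peaks against 56370 and 76098.

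OCT4 enrichment was lower with doxycycline across the genome, so the units stood apart less. The list with doxycycline had 23352 peaks against 50775 without, and 59.9% of the peaks without doxycycline had no peak with it, as was the case at the CRYAA unit. Among OCT4 peaks called in both, the median ratio was 0.698, and it was 0.235 at the CILP unit, a ratio as low as which 0.280% of the shared peaks had. With 1 OCT4 library per condition this has no replicate check.

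The highest YY1 enrichment at the starts of 2 neighbouring genes was not lower with doxycycline in libraries of the same number. At the CLPX start, 26.1 kb downstream of the CILP TSS, the highest YY1 enrichment was 9.62 and 8.40 without and 10.8 and 12.6 with doxycycline. At the U2AF1 start, 61.4 kb upstream of CRYAA, it was 25.4 and 18.6 without and 26.3 and 22.5 with doxycycline. OCT4 peaks within 100 kb went from 11 to 3 around CILP, from 7 to 1 around CRYAA and from 5 to 2 around ABCC2. The OCT4 peak nearest a TSS, from +2.12 kb in ABCC2, had an enrichment of 8.79 without and 3.34 with doxycycline.

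The SVAs of the study's list were not near 2 of the 3 genes. The list of 751 SVAs had none within 100 kb of the TSS of CILP or CRYAA and 1 within 100 kb of that of ABCC2. The SVA nearest to CILP, SVA_D_r1079, was 2922 kb away and had no peak in any library. The one nearest to CRYAA, SVA_E_r226, was 389.8 kb away and had H3K9me3 at 9.05 and 7.04 with doxycycline and none without. YY1 enrichment on it was 6.33 and 3.88 without doxycycline, and with doxycycline 3.41 in 1 library and absent in the other. In ABCC2, the 867 bases of SVA_F_r623 start 56.6 kb from the TSS, in intron 25 of ABCC2-203. H3K9me3 peaks overlapping this SVA had an enrichment of 13.0 and 4.04 without doxycycline and 9.15 in 1 library with it. No peak overlapped it in the other library with doxycycline or in NCCITs. The summits of the peaks, at +56.56 to +56.58 kb, lay just outside the SVA, so the values may not be its own. As peaks were present without doxycycline, it did not gain the mark as defined above.

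The shared unit has many copies. With the CRYAA unit as a query, 325 copies of at least 90% identity over at least 80% of its length were found in hg19, the 3 units included, with a median identity of 95.9%. None of the 322 others overlapped a listed SVA, and 44.4% of them held both guide matches. With doxycycline 64.3% gained H3K9me3 as defined above. An OCT4 peak was on 67.7% of them without and on 18.0% with doxycycline. YY1 peaks were on 58.4% and 73.3% without and on 46.0% and 59.3% with doxycycline. Among the copies with a YY1 peak, median enrichment was 6.36 and 8.85 without and 5.43 and 6.79 with doxycycline. Peaks in such copies rest on reads above the authors' mapping quality limit, and reads that fit many copies equally are mostly below it.

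Among copies with a peak, the rank of the 3 units depended on the library. In the first H3K9me3 library with doxycycline they ranked 25 (CILP), 20 (CRYAA) and 41 (ABCC2) of 287 by enrichment, and in the second 142, 151 and 223 of 291. The CRYAA unit ranked higher for YY1 without doxycycline, at 10 of 190 and 20 of 239, and the CILP unit ranked 54 and 36. For OCT4 without doxycycline the CILP unit ranked 61 of 220 and the CRYAA unit 126. With doxycycline the CILP unit was near the lowest, at 149 of 150 in the first YY1 library and 52 of 59 for OCT4. In the second YY1 library the CILP and CRYAA units were in the middle, at 98 and 97 of 194.

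Other genes near a copy were also lower more often with doxycycline. With CILP, CRYAA and ABCC2 left out, 39.1% of the 197 genes tested with a TSS within 25 kb of a copy were called lower and 2.54% higher. Between 25 and 50 kb 25.4% of 177 genes were called lower, and between 50 and 100 kb 17.6% of 319. Beyond 100 kb 7.71% of 15675 genes were called lower and 9.15% higher, close to the background. The median log2 fold change of the 693 genes within 100 kb was −0.14, against −0.0025 for all genes tested. The falls of CILP, CRYAA and ABCC2 lay far from the middle of that group because the 3 were chosen as the largest falls. These shares are a description, and genes near the same copy are not independent. Of the genes ranked just below, INSYN2B lies 16.4 kb and ENSG00000248347 21.9 kb from a copy, and CHI3L2 2682 kb. The copy beside INSYN2B did not gain H3K9me3 as defined above, and the nearest that did was 9533 kb away.

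Motif letters in the units were searched on both strands as exact matches, with N as any base. No mismatch was allowed, so an absent match does not exclude a similar site. The octamer ATGCAAAT, a site of OCT factors, was in none of the 3 units and in none of the 325 copies, and 9.01% of windows of 151 bases around OCT4 summits without doxycycline hold it. The YY1 core AANATGGC was found once in the CILP unit and once in the ABCC2 unit, and not in the CRYAA unit. Neither match lay within the 151 bases around a YY1 summit of the units without doxycycline. The core was in 91.7% of whole copies, of a median 966 bases, and in 29.2% and 34.4% of the shorter windows of 151 bases around YY1 summits, shares that are not comparable.

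Genes around the 3 loci changed far less than CILP, CRYAA and ABCC2, which follows largely from the choice of these 3 as the largest falls. Of 42 other genes tested with a TSS within 500 kb, 8 were called lower and 3 higher, or 26.2% against the 17.5% called among all genes tested. Of the 42, 3 are annotated duplicates, and SIK1 and its duplicate both count among the 8. The median log2 fold change was −0.02. Within 100 kb 3 of 10 were called, all lower. Without replicate 2 of the no doxycycline libraries, or without replicate 1 or 2 of the doxycycline libraries, 7 genes within 500 kb were called in place of 11.

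Near CILP, CLPX and PARP16 fell. CLPX, a subunit of a mitochondrial protease, was at 116, 114 and 115 CPM without and 95.9, 90.8 and 94.1 CPM with doxycycline (log2 fold change −0.30 ± 0.050, adjusted p = 0.00401 in edgeR). PARP16, an enzyme of the endoplasmic reticulum, was at 20.4, 22.4 and 19.8 CPM without and 13.7, 14.0 and 13.6 CPM with it (−0.60 ± 0.073, adjusted p = 0.000746 in edgeR). Their starts lie 41.2 and 73.1 kb from the shared unit, and in neither gene did the groups overlap. PDCD7 (0.04, adjusted p = 0.732 in edgeR) and UBAP1L (0.07, adjusted p = 0.786 in edgeR), also within 100 kb of the CILP TSS, were not called. Farther out, RBPMS2 fell (−0.63, adjusted p = 0.000117 in edgeR) and RASL12, a small GTPase, rose (0.67, adjusted p = 0.000636 in edgeR). PLEKHO2 was called lower (−0.27, adjusted p = 0.0248 in edgeR), and over the alternatives its adjusted p reached 0.106. Its call was lost without replicate 2 of no doxycycline or any 1 of the doxycycline libraries.

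Near CRYAA, CBS fell. CBS, the enzyme that makes cystathionine from homocysteine, was at 354, 298 and 295 CPM without and 243, 229 and 243 CPM with doxycycline (log2 fold change −0.41 ± 0.075, adjusted p = 0.00666 in edgeR). Its start is 70.2 kb from the unit, and the annotation lists a duplicate of it, as of other genes of this region. U2AF1 (0.22, adjusted p = 0.216 in edgeR), which codes for a splicing factor, and its duplicate ENSG00000275895 (−0.16, adjusted p = 0.420 in edgeR) were not called. The kinase gene SIK1 fell with its duplicate ENSG00000275993, at −1.22 (adjusted p = 0.00801 in edgeR) and −0.89 (adjusted p = 0.000199 in edgeR). Reads of such pairs could be divided either way, so the value of each is uncertain.

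At the outer edge of the CRYAA window HSF2BP was called higher (0.58, adjusted p = 0.0494 in edgeR) and RRP1B lower (−0.23, adjusted p = 0.0472 in edgeR). Both calls were near the threshold. That of HSF2BP was lost in 9 of 11 alternatives, among them DESeq2, with adjusted p up to 0.178. That of RRP1B was lost without replicate 2 or 3 of no doxycycline and without replicate 1 or 2 of doxycycline, with adjusted p up to 0.173.

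Near ABCC2 no gene within 100 kb was called. CUTC, named for copper handling, was at 0.14 (adjusted p = 0.217 in edgeR), COX15, a heme A synthase, at −0.07 (adjusted p = 0.377 in edgeR), and ENSG00000285932 at −0.18 (adjusted p = 0.481 in edgeR). GOT1, the cytosolic aspartate aminotransferase, 352 kb away, was called higher (0.25, adjusted p = 0.0158 in edgeR). The call of GOT1 was lost without replicate 2 of no doxycycline or replicate 1 or 2 of doxycycline, with adjusted p up to 0.0711. NKX2-3 had the lowest fold change of the 12 genes tested there, −1.55, at a mean of 0.364 CPM without doxycycline, and was not called (adjusted p = 0.296 in edgeR).

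**Figure D4:**
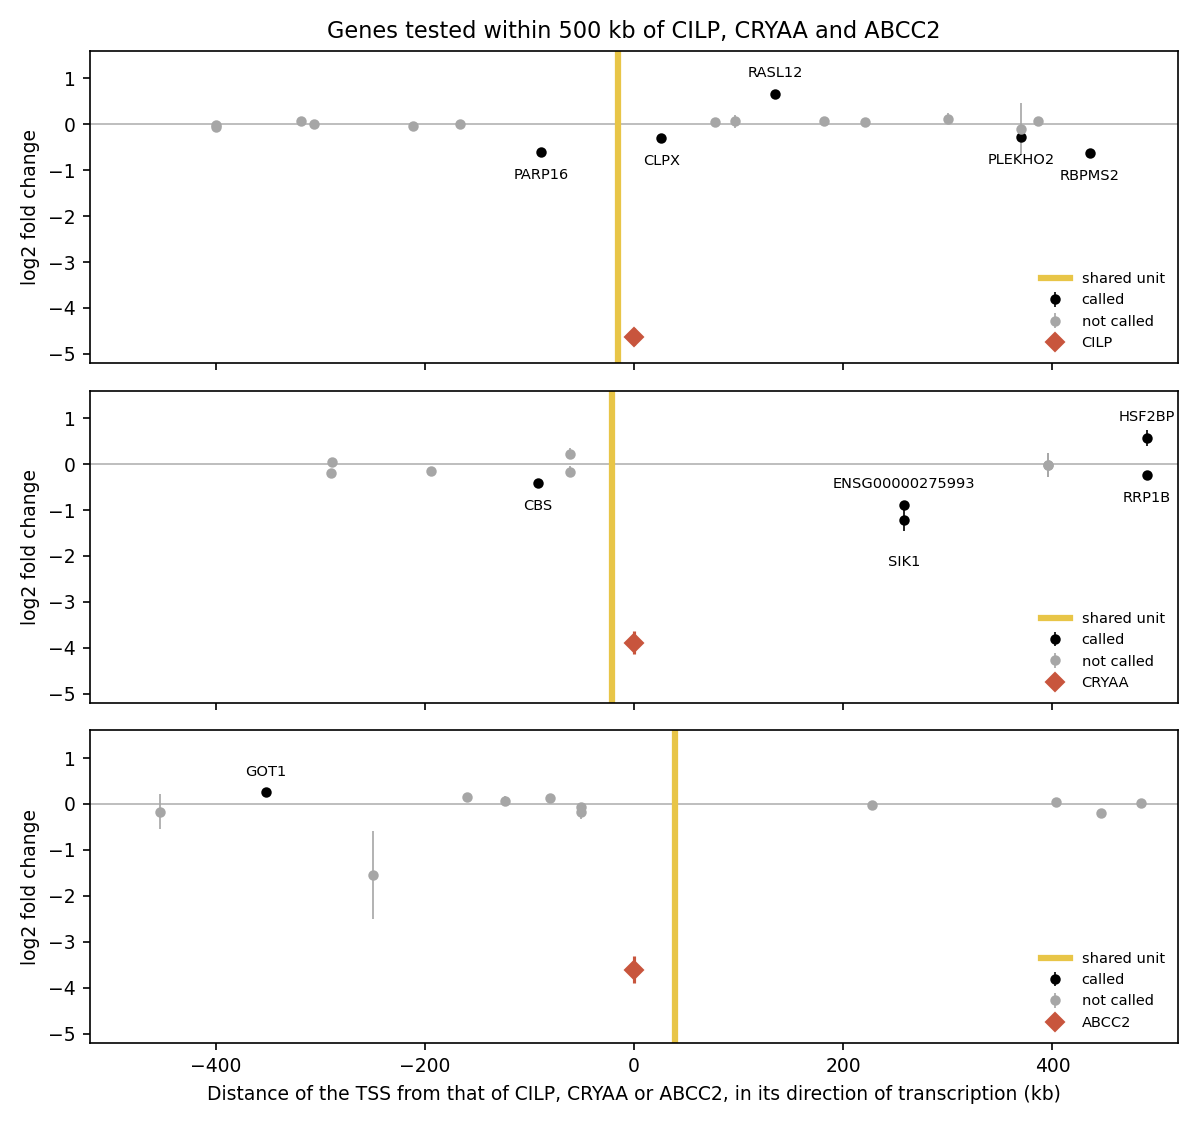
Log2 fold change with its SE of the genes tested within 500 kb of CILP, CRYAA and ABCC2, by distance of their TSS, with called genes in black, the others in grey and the shared unit as a yellow line. The 42 neighbours lie between −1.55 and 0.67, above the red diamonds of the 3 genes at −4.62, −3.88 and −3.61. The 3 genes were chosen for the size of their falls.

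None of the nearest relatives of the 3 genes was called. CILP2, the other cartilage intermediate layer protein, was at 8.11, 5.99 and 5.78 CPM without and 8.29, 7.37 and 7.70 CPM with doxycycline (0.26, adjusted p = 0.202 in edgeR). CRYAB, the partner of alpha-A crystallin in the lens, was at 3.68, 4.83 and 5.67 CPM without and 5.11, 5.88 and 6.10 CPM with it (0.23, adjusted p = 0.316 in edgeR). Both relatives were higher on average with doxycycline, with overlapping groups and no call. Of the related pumps, ABCC1 was at −0.22 (adjusted p = 0.325 in edgeR), ABCC3 at −0.19 (adjusted p = 0.678 in edgeR) and ABCC4 at −0.95 (adjusted p = 0.0854 in edgeR). ABCC4 varied widely without doxycycline, from 6.88 to 19.8 CPM.

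Over 6 lists of genes around the roles of CILP, CRYAA and ABCC2, 89 of 131 listed genes were tested, 5 were called higher and 14 lower. That is 21.3%, against 17.5% of all genes tested, and the median log2 fold change was −0.05. Without replicate 2 of no doxycycline 11 were called, and without replicate 2 of doxycycline 10. Of the 19 calls, 7 held under each of 11 alternatives. Only 2 of the 89 genes have a copy of the shared unit within 100 kb.

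In the cartilage matrix list 1 of 23 genes tested was called higher and 3 lower, with a median of 0.15. HAPLN1, which links hyaluronan to aggrecan, fell from 11.1, 12.1 and 15.7 to 6.64, 8.58 and 7.55 CPM (−0.79, adjusted p = 0.00595 in edgeR). The collagens COL9A1 (−0.45) and COL2A1 (−0.34) were called lower and COL9A3 higher (0.60). The calls of COL9A1, COL9A3 and COL2A1 were lost without 1 or more of the libraries 2 and 3 of no doxycycline and 1 to 3 of doxycycline, with adjusted p in edgeR up to 0.0750, 0.0509 and 0.0967.

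In the TGF-beta and IGF1 signalling list 2 of 19 genes were called higher and 3 lower, with a median of 0.00. The ligand gene TGFB3 fell from 1.70, 1.36 and 1.63 to 0.489, 0.816 and 0.680 CPM (−1.22, adjusted p = 0.00843 in edgeR). TGFB1, whose protein CILP binds, rose from 11.6, 8.96 and 11.4 to 14.8, 15.2 and 14.8 CPM (0.50, adjusted p = 0.0109 in edgeR). IGF2 (0.82), the receptor gene TGFBR1 (−0.31) and LTBP1 (−0.20), which stores latent TGF-beta, were called as well. These last calls were lost without 1 or more of the libraries 2 and 3 of no doxycycline and 1 and 2 of doxycycline, with adjusted p in edgeR up to 0.0712, 0.0685 and 0.0845.

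Among crystallins and small heat shock proteins 10 of 23 were tested, 1 was called higher and 2 lower, with a median of −0.06. HSPB1 rose from 131, 116 and 136 to 192, 178 and 159 CPM (0.47, adjusted p = 0.00582 in edgeR). The beta crystallins CRYBA1 (−1.68) and CRYBB1 (−0.75) were called lower, CRYBA1 at only 0.263 ± 0.0271 CPM (SD, n = 3) without doxycycline. Both calls were lost without replicate 2 of no doxycycline or any 1 of the doxycycline libraries, that of CRYBA1 also without replicate 3 of no doxycycline, with adjusted p in edgeR up to 0.108 and 0.0928. DESeq2 gave CRYBA1 no adjusted p.

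Of 14 lens regulators and lens fibre genes tested 1 was called higher and 2 lower, with a median of −0.21. MAF, a transcription factor that activates crystallin genes, fell from 160, 154 and 148 to 129, 110 and 114 CPM (−0.39, adjusted p = 0.00538 in edgeR). TDRD7 (0.45) was called higher and the gap junction gene GJA1 (−0.22) lower. These calls were lost without replicate 3 of no doxycycline or replicate 2 of doxycycline, that of GJA1 also without replicate 2 of no doxycycline or replicate 1 or 3 of doxycycline, with adjusted p in edgeR up to 0.0823 and 0.122.

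Of the 10 other ABCC genes tested none was called higher and 2 lower, with a median of −0.34. ABCC5, an exporter of cyclic nucleotides, fell from 107, 119 and 111 to 88.1, 87.3 and 93.3 CPM (−0.33, adjusted p = 0.00517 in edgeR). ABCC9, a subunit of a potassium channel, was called lower (−0.49), a call lost without replicate 2 of either condition, with adjusted p in edgeR up to 0.0615.

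In the hepatobiliary transport list 13 of 23 genes were tested, none was called higher and 2 lower, with a median of −0.12. EZR, which encodes ezrin, a linker of membrane proteins to actin, fell from 472, 482 and 491 to 412, 396 and 411 CPM (−0.25, adjusted p = 0.00913 in edgeR). UGT1A1, the enzyme that conjugates bilirubin before ABCC2 exports it, was called lower (−0.90), a call lost without replicate 2 of doxycycline at an adjusted p of 0.0531 in edgeR.

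By the distance between centred log2 CPM profiles over the 6 libraries, among 13876 genes of at least 1 CPM, the nearest profiles were other large falls. The profile nearest to CILP was CRYAA, at a root mean square distance of 0.492 log2 units, followed by ABCC2 at 0.674 and INSYN2B at 0.682. The profiles nearest to CRYAA were CHI3L2 at 0.347, INSYN2B at 0.408 and ENSG00000248347 at 0.463. Those nearest to ABCC2 were INSYN2B at 0.202, ENSG00000248347 at 0.282 and CHI3L2 at 0.388. From CRYAA, CILP came 4th and ABCC2 5th. From ABCC2, CRYAA came 8th and CILP 18th. The size of the fall makes up most of this distance, so genes of like falls are near each other by construction. Within the no doxycycline group, replicate 3 was lowest for all 3 genes.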

How the data were processed

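Per the labels and the study's methods, RNA libraries were poly(A)-selected and quantified with kallisto. The authors deposited estimated counts and TPM per transcript. Those estimated counts were added up for each GENCODE v44lift37 gene and then rounded. Of 188753 transcripts 22247 had no entry there and were left out, and 95.9% to 96.0% of counts remained. Both conditions were fitted in edgeR 4.0.16 under R 4.3.3, with filterByExpr, TMM, the quasi-likelihood test and Benjamini-Hochberg adjustment at 0.05, and CPM used TMM library sizes. The script was tested on simulated data. DESeq2 1.42.0, which the study names, was an alternative.

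For ChIP-seq, the authors used BWA MEM and hg19, required a mapping quality over 10 and called peaks per library. In the deposited lists a peak has a summit ratio over background (fold enrichment), p and q as −log10, and an integer score, the latter not used. The peak caller is not given in the sources used here, and the lists give no depth. Peaks were overlapped by at least 1 base. Gained runs are at least 1000 bp long. The shared unit was found with blastn 2.17.0 among the gained runs, and its copies by megablast. The YY1 HiChIP table was left out, because no label ties its 12 columns of single samples to conditions.

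CILP, CRYAA and ABCC2, the gene lists and the choice of comparisons were made with earlier results of these data known. Named genes were these 3, the 3 next falls, tested genes within 100 kb, called genes within 500 kb, at most 6 called genes per list, nearest relatives, the 3 nearest profiles and cell markers. The shared unit, its copies and the motifs were looked at after the data had been seen. Between libraries of the same condition, counts differed by 7.43 to 14.6 times the variance of counting alone (chi-square per gene), so none was a duplicate. Alternatives were another normalization, other filters, DESeq2, a replicate block, leaving out each replicate, the main transcript alone, log2(TPM + 0.1), a window of 1000 kb, a stricter peak threshold and an equal number of peaks. The sequence of the shared unit is not reported here.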

Additional observations from a re-analysis of the deposited data

How the results depend on the processing

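CILP, CRYAA and ABCC2 were chosen for large falls without overlap between groups, which largely fixed their direction in advance. Their falls kept that direction under every alternative run. On log2(TPM + 0.1) they were −4.32 for CILP and −1.54 for ABCC2, and with its most abundant transcript alone ABCC2 was at −6.33 (a bound, from the floor of 3 counts). Leaving out 1 library gave −4.78 to −4.45 for CILP, −4.05 to −3.61 for CRYAA and −3.79 to −3.35 for ABCC2. CRYAA and ABCC2 could not be fitted with at least 10 counts required in every library. Leaving out 1 library gave 1396 to 3259 calls over all genes (2858 with all libraries), 7 to 12 within 500 kb (11) and 10 to 22 in the lists (19). The number of genes called lower near a copy of the unit, 178, was between 123 and 184 without 1 library, and 130 for copies of at least 95% identity, alternatives chosen after seeing the data. Leaving out 1 H3K9me3 replicate number gave differences in covered kb of 0.691 to 5.60 at CILP, 4.14 to 5.42 at CRYAA and −3.25 to 7.38 at ABCC2. The causes were not tested, beyond the smaller number of libraries. Same-numbered RNA libraries deviated together with correlations of 0.128, 0.0799 and −0.00094, against −0.127 to 0.0598 for libraries of unlike number. These weak correlations do not settle whether the numbers pair the libraries. With the replicate block 3316 genes were called, 10 within 500 kb and 19 in the lists, and the log2 fold changes were −4.62, −3.91 and −3.62. Of the named calls, those of HSF2BP (adjusted p = 0.0783) and CRYBA1 (0.0505) were lost with the block. ABCC2 rests on 5 to 10 counts per library with doxycycline, and the depth of the peak lists is unknown.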
